A study of Homo sapiens with 2 samples.

Results

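The cleavage and polyadenylation specificity factor (CPSF) and the scaffold protein symplekin were followed at the level of their mRNAs: CPSF1, CPSF2, CPSF3, CPSF4, FIP1L1, WDR33 and SYMPK. The members were taken by gene symbol from the deposited expression table, and all 7 were found among its 14914 listed features. The measurement was RIP-seq, sequencing of RNA immunoprecipitated with a protein, in HUH7 cells, a widely used line from a human liver cancer. From the series' title and the sample titles, the IP group is RNA recovered with CSTF2 (1 library) and the Input group is RNA of the same line (1 library). The labels name no treatment, genotype or time for either group, the antibody is not given, and a mock immunoprecipitation was not used here.

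As background, CPSF is the part of the mRNA 3′-end machinery that reads the hexamer AAUAAA in a nascent transcript and cuts the RNA downstream of it. It is built from a polyadenylation specificity module (CPSF1, WDR33, CPSF4 and FIP1L1), which holds the hexamer and recruits poly(A) polymerase, and a cleavage module (CPSF2, CPSF3 and symplekin), which carries the endonuclease. CSTF2 belongs to the cleavage stimulation factor, which binds U-rich and GU-rich RNA downstream of the cut and contacts symplekin through its hinge domain.

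The hexamer is shown here because it is the signal that these proteins read, and the 5 members' mRNAs printed here carry it or a variant of it near their own ends. The 30 bases printed come from the last 40 bases of the principal transcripts of 5 members in GENCODE v29 (GRCh38, the primary assembly of the hg38 build named in the submitters' processing notes), with the hexamer in capitals and U written as T. The stretches are chr19:45815444-45815473 (minus strand) for SYMPK, chr14:92172116-92172145 (plus) for CPSF2, chr2:9473070-9473099 (plus) for CPSF3, chr7:99457342-99457371 (plus) for CPSF4 and chr4:53459639-53459668 (plus) for FIP1L1. All of these positions lie in the last exon, in the 3′ UTR.
SYMPK: aagaAATAAAagatgtgaacttgggcaagt
CPSF2: caattgtgaAATAAAcagattctgaaggtc
CPSF3: ctaaAATAAAatgcattcgtttctctgggg
CPSF4: ttttatgaaatggATTAAAgcttgtttttt
FIP1L1: ttcaaaAATAAAaagacagcaatgacttta
The hexamer AATAAA was found in 4 of these 5 mRNAs, and CPSF4 had the variant ATTAAA. Among 7742 protein-coding features with a principal transcript, 62.8% held AATAAA in their last 40 bases and another 14.2% held ATTAAA without it. CPSF1 and WDR33 are not printed, so the 5 sequences are examples and not a share of the members to set beside these percentages. Only the sense strand was searched, and a match is a description of the letters.

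Values are RPKM, which are reads corrected for exon length and for the total reads of the library. Whole reads behind them were recovered from the deposited values, with 3220045 reads in the IP library and 9517885 in the Input, which was 2.96 times deeper. Each RPKM has an exact Poisson 95% interval, and each IP/Input ratio has an exact conditional (Clopper-Pearson) 95% interval. They cover counting error only, and since no molecular identifiers are described, PCR copies may count as separate reads. Each group holds 1 library, so there is no replicate check, no p-value or SD is given, and every difference describes these 2 libraries. RNA bound to CSTF2 and RNA carried along by other means cannot be told apart without a mock library, and in bulk RNA fewer cells and less RNA per cell cannot be told apart.

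SYMPK, which encodes symplekin, the scaffold that links the cleavage module to the cleavage stimulation factor, was covered by 447 IP reads and 127 Input reads. On a scale per length this was 13.1 RPKM in the IP (11.9 to 14.3) and 1.26 RPKM in the Input (1.05 to 1.49). The ratio was 10.4 (8.52 to 12.8). SYMPK was therefore the highest of the 7 mRNAs in the IP, while FIP1L1, CPSF3, WDR33 and CPSF1 stood above it in the Input, and the intervals of its level in the libraries lay far apart. The gene lies on chromosome 19 from 45815410 to 45863290 (minus strand, 10628 bp of exon in all transcripts joined). It supplied 42.5% of the members' reads in the IP (Wilson 95% interval 39.5 to 45.5) and 12.0% in the Input (10.2 to 14.1).

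CPSF2, the catalytically inactive partner of the endonuclease, was covered by 96 IP reads and 122 Input reads. Its level was 2.19 RPKM in the IP (1.78 to 2.68) and 0.943 RPKM in the Input (0.783 to 1.13). The ratio was 2.33 (1.76 to 3.06), and the intervals of the 2 levels did not overlap. CPSF2 lies on chromosome 14 from 92121937 to 92172145.

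CPSF3, the endonuclease that cuts the pre-mRNA, was covered by 30 IP reads and 90 Input reads. Its level was 2.47 RPKM in the IP (1.67 to 3.53) and 2.51 RPKM in the Input (2.02 to 3.08). The ratio was 0.985 (0.629 to 1.504), so a difference was not detectable at this depth, and CPSF3 was the only member whose ratio interval included 1. CPSF3 lies on chromosome 2 from 9423568 to 9473101. Within the cleavage module the 3 mRNAs thus ran from no detectable difference for the nuclease to a ratio of 10.4 for the scaffold.

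**Figure D1:**
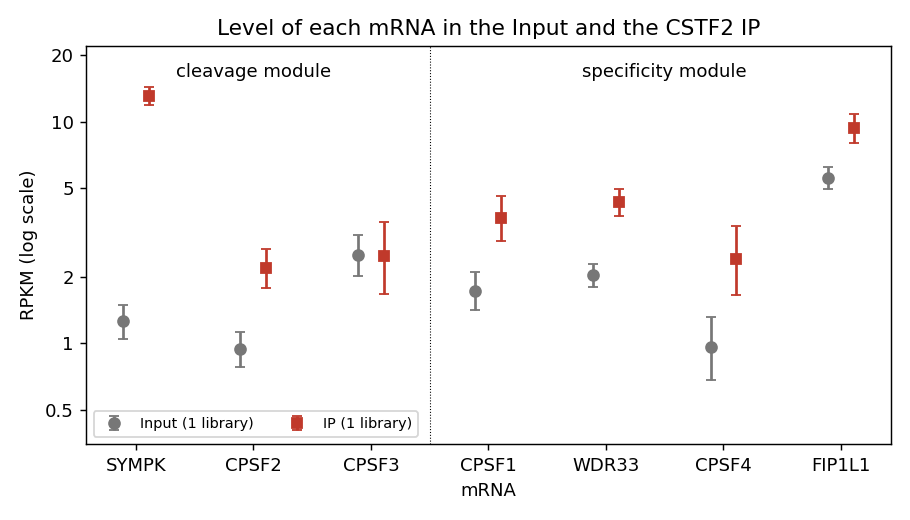
RPKM (log scale) of each of the 7 mRNAs in the Input (grey circles) and the CSTF2 IP (red squares), 1 library each, with exact Poisson 95% intervals. SYMPK goes from 1.26 RPKM in the Input to 13.1 RPKM in the IP, while CPSF3 sits at about the same level in both.

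The 4 mRNAs of the specificity module were all higher in the IP by ratio. CPSF4, a zinc finger protein that contacts the hexamer, was covered by 33 IP reads and 39 Input reads. This gave 2.41 RPKM in the IP (1.66 to 3.39) and 0.964 RPKM in the Input (0.686 to 1.32), a ratio of 2.50 (1.52 to 4.08). It had the fewest Input reads of the 7 and the widest relative interval.

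WDR33, the WD40-repeat protein that contacts the hexamer together with CPSF4, was covered by 204 IP reads and 282 Input reads. Its level was 4.35 RPKM in the IP (3.77 to 4.98) and 2.03 RPKM in the Input (1.80 to 2.28). The ratio was 2.14 (1.78 to 2.57), with intervals of the levels that did not overlap.

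CPSF1, the largest subunit and the scaffold of the specificity module, was covered by 72 IP reads and 100 Input reads. Its level was 3.68 RPKM in the IP (2.88 to 4.64) and 1.73 RPKM in the Input (1.41 to 2.10), a ratio of 2.13 (1.55 to 2.91). FIP1L1, which binds U-rich RNA and poly(A) polymerase, was covered by 170 IP reads and 300 Input reads. Its IP level of 9.37 RPKM (8.01 to 10.9) and Input level of 5.59 RPKM (4.98 to 6.26) gave a ratio of 1.67 (1.38 to 2.03). FIP1L1 was the most abundant of the 7 in the Input and had the lowest ratio of its module. The module as a whole lay between 1.67 and 2.50, a range narrower than that of the cleavage module. The genes lie on 4 chromosomes: CPSF1 on chromosome 8 (144393229 to 144409349), CPSF4 on chromosome 7 (99438922 to 99457371), FIP1L1 on chromosome 4 (53377643 to 53460861) and WDR33 on chromosome 2 (127701022 to 127811187).

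The ratio of every pair of members was compared, in 21 pairs. Library scaling cancels in such a ratio of ratios. SYMPK stood above each of the other 6, from 4.16 times the ratio of CPSF4 (2.43 to 7.11) to 10.6 times that of CPSF3 (6.55 to 17.3). Those 6 intervals still lay above 1 when widened for the number of pairs (1.85 to 9.46 against CPSF4). CPSF3 stood below each of the other 5 in 95% intervals that lay above 1, from 1.70 for FIP1L1 (1.06 to 2.78) to 2.54 for CPSF4 (1.30 to 4.95). After widening, 2 of these 5 still lay above 1, CPSF2 over CPSF3 (2.36, 1.09 to 5.34) and WDR33 over CPSF3 (2.17, 1.08 to 4.62). The remaining 10 pairs, among CPSF1, CPSF2, CPSF4, WDR33 and FIP1L1, had ratios of 1.005 to 1.49 and 95% intervals that included 1. The highest upper bound was that of CPSF4 over FIP1L1 (0.874 to 2.54), so differences of that size between them were not detectable at this depth.

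By level in the IP, the order was SYMPK, FIP1L1, WDR33, CPSF1, CPSF3, CPSF4 and CPSF2. The intervals of SYMPK and FIP1L1, and of FIP1L1 and WDR33, did not overlap, while those of every later pair of neighbours did. In the Input, FIP1L1 led CPSF3 beyond counting error, and each later neighbour overlapped with the next (CPSF3, WDR33, CPSF1, SYMPK, CPSF4, CPSF2). The level per length depends on which transcripts are counted as exon. The deposited lengths join all annotated exons, 6 retained-intron transcripts included for SYMPK, so the principal transcript makes up 39.5% of the length for SYMPK, 39.0% for FIP1L1, 39.8% for CPSF4 and 95.9% for CPSF2. All reads of each gene were then divided by the length of its principal transcript. The IP and Input values were 33.1 and 3.18 RPKM for SYMPK, 24.0 and 14.3 RPKM for FIP1L1, and 2.29 and 0.983 RPKM for CPSF2. Reads on other exons were not taken off, so these values are upper limits for the principal transcript. SYMPK and FIP1L1 led the IP on both lengths, and CPSF2 was lowest in both libraries on both lengths, while SYMPK moved up from the fifth place in the Input to the third. Ratios do not depend on the length used, because the same reads enter both. Reads within the principal transcripts alone were not counted, so ratios for those transcripts are not known.

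To place the members among all features, log2((IP + 1)/(Input + 1)) of the RPKM values was used. The added 1 RPKM (the pseudocount) makes changes of low features look smaller. All 7 members were among the 9880 features whose mean level reached 1 RPKM. On that scale the log2 ratio was 2.64 for SYMPK, 0.82 for WDR33, 0.80 for CPSF4, 0.78 for CPSF1, 0.72 for CPSF2, 0.65 for FIP1L1 and -0.02 for CPSF3. The median of the members was 0.78, against 0.17 for all features and 0.15 for the 7779 protein-coding ones. Without SYMPK the median was 0.75.

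One member of the 7, SYMPK, was at least 2-fold higher on that scale, beside 9.88% of all features and 5.76% of the protein-coding ones, and 0 were lower by that much, beside 6.83% of all features and 5.24% of the protein-coding ones. The numbers of all features past 2-fold, 976 higher and 675 lower, became 684 and 944 when centred on the median, and 579 and 1136 with trimmed mean scaling, which divides the ratios by 1.26. The log2 ratio of SYMPK was past 2-fold under both scalings, those of the other 5 higher members were above 0, and that of CPSF3 was below 0. By RPKM ratio without a pseudocount, 5 members were above 2, beside 19.6% of all features and 15.7% of the protein-coding ones. The ratio interval lay above 1 for 6 of the 7, beside 36.1% of all features and 37.3% of the protein-coding ones. For SYMPK alone it lay above 2, beside 6.76% of all features. In the authors' deposited table, which adds a fraction of a read in place of 1 RPKM, the log2 fold changes are 3.38 for SYMPK, 1.32 for CPSF4, 1.22 for CPSF2, 1.10 for WDR33, 1.09 for CPSF1, 0.74 for FIP1L1 and -0.02 for CPSF3. The count of members past 2-fold therefore turns on the pseudocount, since 4 of the members with ratios just above 2 have Input levels near 1 or 2 RPKM.

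**Figure D2:**
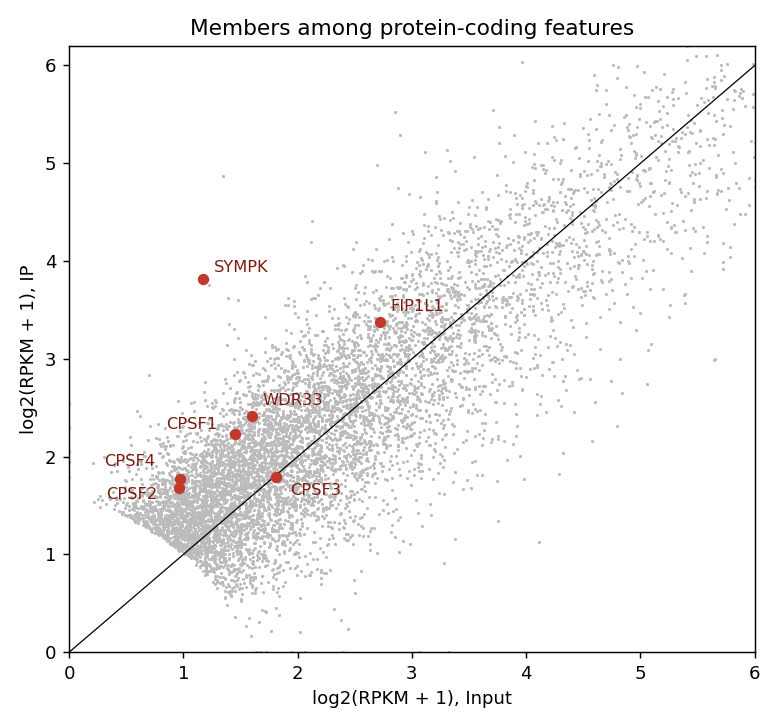
Each grey point is a protein-coding feature past the filter, placed by log2(RPKM + 1) in the Input (x axis) and the IP (y axis), and the 7 members are in red; 243 features with higher levels lie outside the axes. SYMPK lies far above the line of equal level, CPSF3 on it, and the other 5 within the upper part of the cloud.

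By log2 ratio, SYMPK ranked 50 of the 9880 features and 8 of the 7779 protein-coding features. WDR33, CPSF4, CPSF1, CPSF2 and FIP1L1 lay between percentiles 77.3 and 84.4 of all features, and CPSF3 at percentile 38.5. The ratio varied with gene length, base composition and level over all protein-coding features. In the top quartile of exon length (above 7103 bp), which holds SYMPK, CPSF2 and WDR33, the median log2 ratio was 0.42 and 10.4% were at least 2-fold higher. In the bottom quartile it was -0.24, with 3.36% at least 2-fold higher. By GC content of the principal transcript, the median was 0.38 in the top quartile, which holds SYMPK (61.0% GC) and CPSF1 (62.3%), and -0.05 in the bottom one, which holds CPSF2 (39.1%). By Input level, the bottom quartile, with SYMPK, CPSF2 and CPSF4, had a median of 0.46. The filter shapes this value, because a feature below 1 RPKM in the Input passes only if its IP level is above 1 RPKM. CPSF2 (0.943 RPKM in the Input) and CPSF4 (0.964 RPKM) passed in that way. Length, GC content and Input level move with the ratio, Input level in part through the filter. Their part in the members' values was not tested.

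Against protein-coding features whose exon length and Input level were both within 2-fold of its own, SYMPK was exceeded by 1 of 1778, PCNT, which encodes the centrosomal scaffold pericentrin. The median log2 ratio of those features was 0.38, and 6.86% were at least 2-fold higher. The same comparison placed CPSF1 at percentile 87.9, CPSF4 at 86.1, FIP1L1 at 83.9, WDR33 at 83.4, CPSF2 at 74.6 and CPSF3 at 42.6 of its own comparable features. SYMPK thus ranked near the top among features of like length and level that passed the filter, and CPSF2 was lowest of the 6 higher ones. The windows of SYMPK, CPSF1, CPSF2 and CPSF4 reach below 1 RPKM in the Input. There the filter keeps only features with an IP level above 1 RPKM, which shapes these medians and percentiles to differing degrees. These percentiles describe single genes in these libraries.

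**Figure D3:**
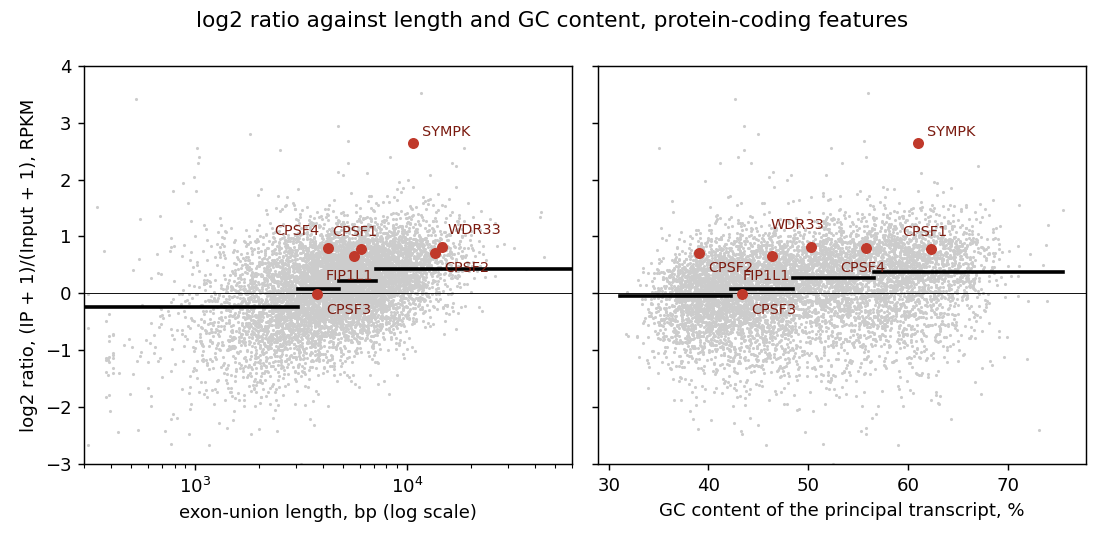
log2 ratio of protein-coding features (grey) against exon-union length (left, log scale) and GC content of the principal transcript (right), with the median of each quartile of features as a black line and the members in red; 7 features on the left and 4 on the right lie outside the axes. The quartile medians rise from -0.24 to 0.42 with length and from -0.05 to 0.38 with GC content, and SYMPK lies above both.

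CSTF2 is known for binding GU-rich RNA, so the pentamer UGUGU was counted in the principal transcripts, on the sense strand and with overlapping matches. SYMPK held 1 copy in 4195 bases, 0.238 per kb, which is percentile 9.92 of 7742 transcripts. CPSF1 held 1 copy as well (0.223 per kb), FIP1L1 held 1 (0.455 per kb), CPSF3 held 2 (0.853 per kb), CPSF2 held 15 (1.15 per kb), WDR33 held 11 (1.16 per kb) and CPSF4 held 6 (3.55 per kb, percentile 95.4). The median over all was 1.29 per kb, and 90.6% of transcripts held at least 1 copy. The members' order by this count was not their order by ratio. Exons outside the principal transcripts were not searched, though their reads enter the ratios. For SYMPK the principal transcript makes up 39.5% of the exon length. Bases downstream of the cut, where the cleavage stimulation factor binds nascent RNA, are not part of these transcripts.

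Reads were counted without stated use of strand, so genes that overlap the members bear on their values. SYMPK shares 41 exon bases with 1 antisense transcript, AC092301.1, and none with a protein-coding gene. Its closest protein-coding neighbour, RSPH6A at 91 bp, had no value matched. The neighbour FOXA3, 699 bp from SYMPK, was covered by 12 IP reads and 24 Input reads. WDR33 contains the whole of SFT2D3 on the opposite strand, 3735 bases, which was listed with 8 and 31 reads. Whether those reads were also counted for WDR33 is not known. If all of them were, the ratio of WDR33 without them was 2.31 (1.90 to 2.79). FIP1L1 shares 1560 exon bases with LNX1 on the opposite strand, which had 28 and 76 reads, and 1017 with AC058822.1. CPSF4 shares 179 exon bases with AC073063.1 on the opposite strand, for which no value was matched, and 157 with the readthrough gene ATP5MF-PTCD1, listed as ATP5J2-PTCD1, whose level was 1.94-fold lower in the IP (1.39 to 2.76). CPSF1 holds the microRNA genes MIR939, MIR1234 and MIR6849 on its own strand, sharing 82, 80 and 69 exon bases, with no value matched for them, and it shares 14 exon bases with ADCK5, which was covered by 0 IP reads and 10 Input reads. CPSF2 and CPSF3 overlap no annotated gene, and their closest neighbours are NDUFB1 at 20 bp and ITGB1BP1 at 21 bp. NDUFB1, a respiratory chain gene, was 3.67-fold lower in the IP (2.55 to 5.45), opposite in direction to CPSF2. The next protein-coding genes of other members went both ways. ZNF789 by CPSF4 (ratio 9.98), SLC52A2 by CPSF1 (5.62), SCFD2 by FIP1L1 (3.15) and IAH1 by CPSF3 (2.16) had intervals above 1. BUD31 by CPSF4 (1.25-fold lower), POLR2D by WDR33 (1.39-fold) and CHIC2 by FIP1L1 (1.62-fold) had ratio intervals below 1. Those of ITGB1BP1 and FOXA3 included 1. CPSF1P1, a processed pseudogene of CPSF1, was covered by 0 IP reads and 10 Input reads and lay below the filter. The 95% interval of its ratio reached up to 1.32, so a difference was not detectable at this depth.

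The other genes of 3′-end formation and of related nucleases were taken as a list of 37, of which 35 were listed and 26 passed the filter. Of those 26, 3 passed 2-fold upward (CSTF2, RBBP6 and ELAC2) and 0 downward. The shares were 9.88% and 6.83% of all features, and 5.76% and 5.24% of the protein-coding ones. The 3 of 26 is thus near the share over all features and above that of the protein-coding ones, with CSTF2, the targeted protein's own mRNA, among the 3. Their median log2 ratio was 0.25. Only CSTF2 among them had a higher ratio than SYMPK. CSTF2 mRNA was covered by 3429 IP reads (487 RPKM) and 145 Input reads (6.97 RPKM), and its ratio was 69.9 (59.2 to 83.1). Its partners in the cleavage stimulation factor reached 1.90 at most, for CSTF2T (1.36 to 2.63), the paralog of CSTF2, and CSTF1 was lowest at 0.985 (0.522 to 1.77). In cleavage factors I and II, PCF11, which couples cleavage to transcription termination, had a ratio of 2.25 (1.81 to 2.77), close to most CPSF mRNAs. NUDT21, the UGUA-binding subunit, was 2.18-fold lower by ratio (1.59 to 3.06). CPSF6 and CPSF7 carry the CPSF name but belong to cleavage factor I. Their ratios of 1.23 (1.07 to 1.42) and 1.49 (1.17 to 1.89) were below the ratios of the 6 members other than CPSF3. Of those 6, the interval of CPSF6 overlapped that of FIP1L1. The interval of CPSF7 overlapped those of FIP1L1, CPSF1, CPSF2, CPSF4 and WDR33.

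Among the poly(A) polymerases, binding proteins and accessory factors, 1 of 9 past the filter was at least 2-fold higher. The share was 9.88% of all features and 5.76% of the protein-coding ones. It was RBBP6, an activator of cleavage, at 2.50 (2.16 to 2.89). PPP1CB, a phosphatase subunit, was lowest at 1.85-fold lower (1.53 to 2.26). In the cleavage module of the Integrator complex, relatives of CPSF3 and CPSF2 and their partner had ratios of 1.79 (1.31 to 2.45) for CPSF3L, now named INTS11, 1.97 (1.09 to 3.48) for INTS9, and 1.58 for INTS4, which lay below the filter. ELAC2, a tRNA-processing nuclease of the same fold, was highest of that family at 2.38 (1.99 to 2.85), on 229 and 284 reads. ELAC1, below the filter, was the lowest of the family, on 2 and 10 reads. In histone pre-mRNA processing, which uses symplekin and CPSF3 without poly(A) addition, CASP8AP2 had a ratio of 1.38 (1.11 to 1.72) and SLBP was 1.37-fold lower (1.17 to 1.61). In cytoplasmic polyadenylation, another process that involves symplekin, PAPD4 had a ratio of 1.95 (1.18 to 3.18) and CPEB4 1.12 (0.863 to 1.44).

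**Figure D4:**
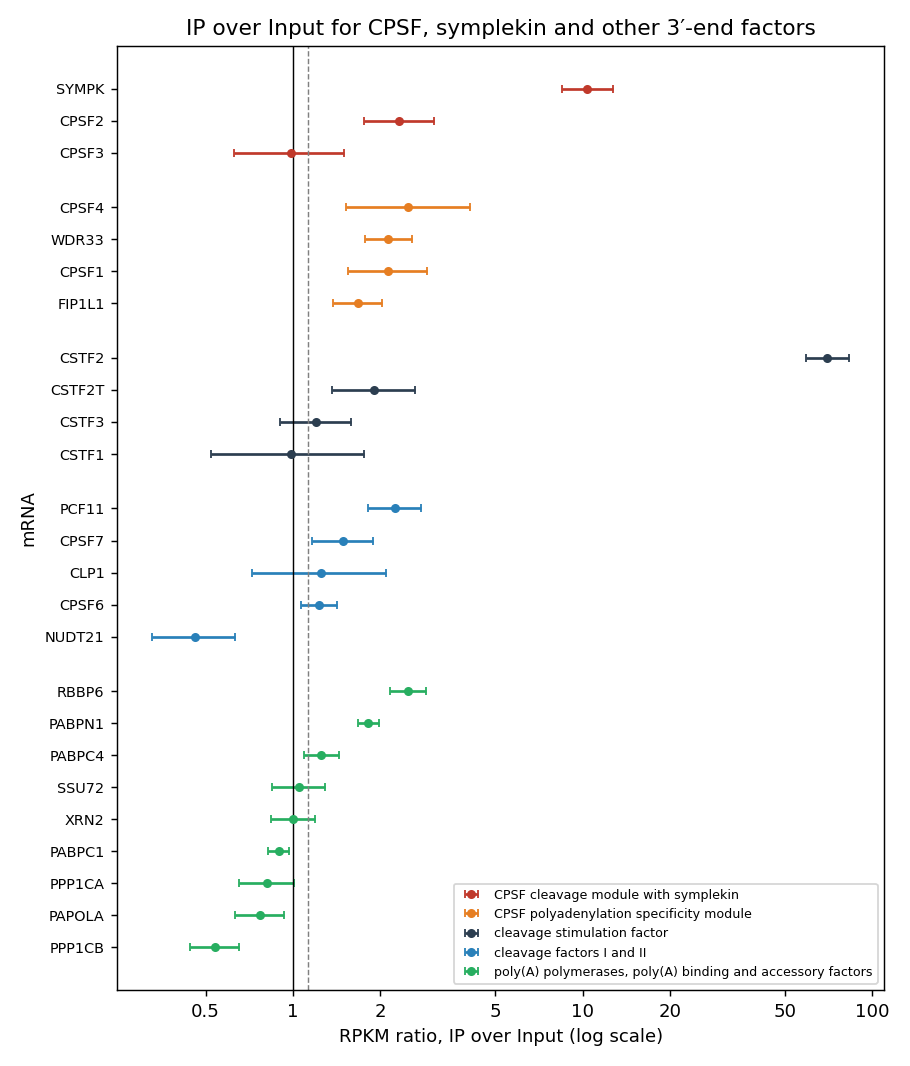
RPKM ratio of IP over Input (log scale) with exact 95% intervals for the members and for other genes of 3′-end formation that passed the filter, coloured by group (the histone, Integrator, nuclease and cytoplasmic lists are not drawn); the solid line marks equal level and the dashed line the median of all features, 1.13. SYMPK at 10.4 lies apart from the other members, which reach 2.50 at most, and below CSTF2 at 69.9.

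Over the libraries, the protein-coding features nearest to each member by Euclidean distance in log2(RPKM + 1), a measure over 2 libraries only, were found among 7778 candidates. For SYMPK they were DEGS1, a sphingolipid desaturase gene, at a distance of 0.08, PLEC, which encodes the cytoskeletal linker plectin, at 0.29, and LENG8 at 0.37. Their ratios were 9.33 (6.21 to 14.4), 6.99 (6.04 to 8.11) and 6.23 (4.95 to 7.90). The nearest to the other members lay within 0.02: NIN for CPSF1, KANSL3 for CPSF2, PARG for CPSF3, SIN3B for CPSF4, SLC6A6 for FIP1L1 and USP24 for WDR33. SYMPK thus lay in a sparser part of the plot than the others.

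The label of the line was checked on markers. All 8 hepatocyte markers were listed, from 4.25 RPKM (TTR) to 311 RPKM (FGB) in the Input, and their summed level was 682 RPKM (IP) and 707 RPKM (Input). Of 3 blood markers only CD68 was listed (22 and 12 reads), of 3 stromal ones only COL1A2, of 2 endothelial ones none, and of 2 cholangiocyte ones KRT19, at 46.5 RPKM in the Input. Mitochondrially encoded genes took 61.8% of the IP reads and 61.6% of the Input reads, and nuclear protein-coding genes took 33.7% and 29.3%.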

How the data were processed

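One table was used. Its deposited RPKM columns (IP, Input) and its deposited log2 fold change column are named per the file headers. Per the submitters' processing notes, FastQC 0.12.0 and build hg38 were used. The sources used here name no aligner, counter or annotation. Per the labels' protocols, RNA from a commercial RIP kit was fragmented and copied from random hexamers. Whole reads were solved from the deposited RPKM and log2 fold change (tolerance 0.01 reads) for 14913 of 14914 features, with Python 3.11.15 and scipy 1.17.1, after tests on simulated data. The log2 fold changes fit reads plus 0.0632 (IP) and 0.187 (Input). For the members, the recovered length equalled the exon union of GENCODE v29. Of the names, 12675 matched by symbol and 269 by synonym. Groups came from sample titles. With 1 library per group no test was run: the filter was a mean of 1 RPKM, the pseudocount 1 RPKM and the threshold 2-fold. Trimmed mean scaling was split evenly between the libraries. The members and gene lists were chosen with earlier results of these data known. Named were the members, the highest and lowest of each list by log2 ratio with 1 RPKM added, and the nearest features by level. Genes sharing exon bases with a member and adjacent protein-coding genes with a value were also named. Other genes were named after their values were seen. The alternatives without SYMPK, with counting intervals, by principal transcript length and without SFT2D3 were added after the data were seen. One further gene list and 1 further 3′-end sequence are not reported here.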

Additional observations from a re-analysis of the deposited data

How the results depend on the processing

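No paired analysis was possible because each group holds 1 library and the labels give no replicate numbers. The members' median log2 ratio (0.78) was 1.06 with a pseudocount of 0.1 RPKM and 0.37 with 5 RPKM. The number of members at least 2-fold higher (1) became 5 with a pseudocount of 0.1 RPKM and 6 at 1.5-fold, and no setting gave a member that was lower by the threshold. SYMPK ran from 1.53 to 3.28 and CPSF3 from -0.25 to -0.01 over the pseudocounts and scalings, and the other 5 were above 0 in each. For the members, the counting intervals meant here lie around the main log2 ratio, with 1 RPKM added. They are not the intervals of the RPKM ratio given above. A pseudocount of 0.1 RPKM moved 3 of the 7 members outside these intervals, and 5 RPKM moved 5. Centring on the median of all features, or scaling to nuclear protein-coding reads, kept all 7 within their counting intervals. Trimmed mean scaling moved 2 outside, FIP1L1 to 0.36 and WDR33 to 0.57. A filter of 5 RPKM left 2 members, SYMPK and FIP1L1. Among all features, 976 were at least 2-fold higher and 675 lower. These became 1830 and 1023 with a pseudocount of 0.1 RPKM, 186 and 295 with 5 RPKM, 327 and 407 when the filter was raised to 5 RPKM, 2569 and 1484 for a 1.5-fold threshold, and 579 and 1136 with trimmed mean scaling. Centred on the median they were 684 and 944, and by counting interval of the RPKM ratio beyond 2-fold 668 and 284. The split between directions turned from more higher to more lower when centred, with trimmed mean scaling, with the pseudocount of 5 RPKM and with the filter of 5 RPKM, and the cause was not tested. Depth limits CPSF3 and CPSF4 most, on 30 and 33 reads in the IP.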

Other observations

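The surroundings of the members on the chromosomes were described by the protein-coding features past the filter within 500 kb on either side. Around SYMPK, 17 such features had a median log2 ratio of 0.51, from -0.82 to 1.04, and 1 of them was at least 2-fold higher. None of these 17 reached the 2.64 of SYMPK, and noncoding features were not counted here. Around CPSF1, 18 features had a median of 0.33 and 4 were at least 2-fold higher, with the highest at 2.23, above CPSF1 itself at 0.78. Around CPSF4, 15 features had a median of 0.10, with 0 past 2-fold upward and 1 past it downward, at -1.27. Over all protein-coding features past the filter, 5.76% were at least 2-fold higher and 5.24% lower. The other members had 8 or fewer such neighbours.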
